A study of Mus musculus with 2 samples.

Results

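The chemokine ligands were taken as all gene symbols that begin with Ccl or Cxcl and a digit, with Cx3cl1 and Xcl1 added, which gave 39 of the 23284 symbols in the files. They comprised 24 CC ligands, 13 CXC ligands, Cx3cl1 and Xcl1. Their mRNA was compared between leukemic stem cells (LSCs) of a chronic myeloid leukemia (CML) mouse model made from WT donors and from STAP-1 KO donors, both on the C57BL/6J background. STAP-1 is an adapter protein of signaling cascades, and its gene is disrupted in all tissues of the KO donors. In both groups, donor LSK cells, which lack lineage markers and carry Sca-1 and c-Kit, received human BCR-ABL and green fluorescent protein (GFP) from a retrovirus and were transplanted into lethally irradiated C57BL/6SJL recipients. Mice were 8 to 14 weeks old. GFP+ CD45.2+ LSK cells were sorted at day 11 after this first transplantation, and 1 library was sequenced for each genotype. How many mice went into a library is not given in the sources used here, so every difference is one between 2 libraries and carries no p-value.

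Chemokines are small secreted proteins that steer leukocytes along gradients by binding G protein-coupled receptors. CC and CXC ligands are told apart by the spacing of their first cysteines, and most inflammatory members lie in gene clusters and are switched on within hours by NF-κB and AP-1 factors. Macrophages, mast cells and other activated leukocytes are rich sources of the inflammatory members, whereas Cxcl12, the main retention signal for hematopoietic stem cells in the bone marrow, comes mostly from stromal cells.

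Values are FPKM, the fragments mapped to a gene scaled to its exon length in kilobases and to the mapped fragments of the library, so that levels of different genes can be set side by side per length. From the steps between low values, the WT library had an effective depth of 7507000 reads and the STAP-1 KO library of 10468000 reads, and at these depths 3 reads on a transcript of 1 kb equal 0.506 and 0.361 FPKM. Ratios are log2((STAP-1 KO + 0.1)/(WT + 0.1)) and were taken only where the mean of both libraries was at least 1 FPKM. The pseudocount understates the change of low genes. The 95% interval given with a ratio is an exact binomial interval on estimated reads. It covers counting error only, since the reads carry no molecular identifiers and mice and library preparations were not repeated. Stap1 had 61.95 FPKM in WT LSCs and 0.309 FPKM in STAP-1 KO LSCs, which matches the labels. Of the sorting antigens, Kit had 468 and 30.1 FPKM, Ly6a (Sca-1) 285 and 106 FPKM, Cd34 281 and 194 FPKM, and Ptprc (CD45) 107 and 38.2 FPKM.

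The promoters of 5 ligands of different ratio are shown first, to set the letters of lower and higher ligands side by side, as RefSeq (GRCm38.p6) gives them from 250 bases before to 50 bases after the start of the transcript. Ccl1, Ccl3 and Ccl9 were lower in STAP-1 KO LSCs, Cxcl10 was higher, and Cxcl2 was within the 2-fold cut-off that the study used. They lie at chr11:82179763-82180062 (minus strand, Ccl1), chr11:83649329-83649628 (minus strand, Ccl3), chr11:83578587-83578886 (minus strand, Ccl9), chr5:92348840-92349139 (minus strand, Cxcl10) and chr5:90903649-90903948 (plus strand, Cxcl2). Capitals mark letters that match an NF-κB consensus, the AP-1 motif TGANTCA, the GAS motif of STAT factors TTCNNNGAA, the interferon motif GAAANNGAA or the TATA motif TATAAA on either strand.
Ccl1: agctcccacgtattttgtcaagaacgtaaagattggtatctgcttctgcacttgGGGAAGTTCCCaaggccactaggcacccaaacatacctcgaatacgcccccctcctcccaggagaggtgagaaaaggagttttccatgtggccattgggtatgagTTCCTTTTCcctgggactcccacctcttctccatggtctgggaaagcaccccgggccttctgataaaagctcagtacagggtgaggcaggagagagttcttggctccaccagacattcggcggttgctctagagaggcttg
Ccl3: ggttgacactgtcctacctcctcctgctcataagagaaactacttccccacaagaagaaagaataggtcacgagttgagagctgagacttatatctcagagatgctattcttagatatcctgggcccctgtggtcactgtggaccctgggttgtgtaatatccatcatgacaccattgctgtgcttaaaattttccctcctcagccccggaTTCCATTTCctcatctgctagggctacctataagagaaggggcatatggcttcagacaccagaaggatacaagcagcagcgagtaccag
Ccl9: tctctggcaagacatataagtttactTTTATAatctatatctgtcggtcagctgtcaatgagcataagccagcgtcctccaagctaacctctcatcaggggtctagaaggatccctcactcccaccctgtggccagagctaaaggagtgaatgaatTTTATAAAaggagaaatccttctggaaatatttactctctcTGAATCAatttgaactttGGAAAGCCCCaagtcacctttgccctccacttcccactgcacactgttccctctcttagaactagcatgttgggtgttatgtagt
Cxcl10: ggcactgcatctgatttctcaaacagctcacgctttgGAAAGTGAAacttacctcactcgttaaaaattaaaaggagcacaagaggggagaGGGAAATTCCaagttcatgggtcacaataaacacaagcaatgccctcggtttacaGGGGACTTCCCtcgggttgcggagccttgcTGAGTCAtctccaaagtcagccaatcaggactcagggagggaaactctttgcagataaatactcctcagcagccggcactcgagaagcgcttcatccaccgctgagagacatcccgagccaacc
Cxcl2: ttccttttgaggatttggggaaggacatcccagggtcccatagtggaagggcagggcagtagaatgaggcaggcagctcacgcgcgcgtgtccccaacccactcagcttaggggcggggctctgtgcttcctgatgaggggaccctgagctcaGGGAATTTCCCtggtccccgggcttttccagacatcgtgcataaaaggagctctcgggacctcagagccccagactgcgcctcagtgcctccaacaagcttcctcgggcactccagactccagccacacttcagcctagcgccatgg

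In these windows, the NF-κB letters began 196 bases before the start of Ccl1, 97 bases before that of Cxcl2, and 159 and 104 bases before that of Cxcl10. In Ccl9 they began 35 bases before the start, after an AP-1 match 53 bases before it. Matches that overlap, on the same or on opposite strands, appear as 1 stretch of capitals. Cxcl10 also held an interferon match and an AP-1 match, 213 and 74 bases before its start, and Ccl3 held only an interferon match, 39 bases before. Of the 17 ligands with a ratio, 11 had a promoter in the table, and the NF-κB letters were found in 6 of them (Ccl1, Ccl9, Ccl27a, Cxcl2, Cxcl3 and Cxcl10), against 8.46% of all 32851 promoters of this length. AP-1 letters were found in 3 of the 11 (7.81% of all promoters), the interferon letters in 3 (8.56%), the TATA letters in 3 (13.6%) and the GAS letters in 1, Ccl17 (8.30%). Over all 27 ligands with a promoter in the table, expressed or not, the NF-κB letters were found in 8, the TATA letters in 10, the AP-1 and the interferon letters in 6 each and the GAS letters in 2. Some ligands have more than 1 promoter entry, and a ligand was counted if any of them held the letters. Ligands with NF-κB letters were thus present among those that were lower, within the cut-off and higher. No promoter entry was used for Ccl2, Ccl4, Ccl5, Ccl7, Ccl24 and Cxcl16.

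The LSCs of both genotypes held chemokine ligand mRNA, and its summed level was lower in STAP-1 KO LSCs. It was 1650 FPKM in WT LSCs and 443.3 FPKM in STAP-1 KO LSCs, 3.72 times as much in WT. This was 0.254% and 0.0734% of all FPKM. Of the 39 ligands, 23 were above 0 in WT LSCs and 25 in STAP-1 KO LSCs, and 14 were listed at 0 in both. A ratio could be taken for 17 ligands, and the other 8 had low values. Just inside the limit lay Cxcl12 and Ccl24, with means of 1.44 and 2.06 FPKM, and just outside it Cxcl9 with 0.796 FPKM.

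Of the 17 ligands with a ratio, 10 were at least 2-fold lower and 4 at least 2-fold higher in STAP-1 KO LSCs, and 3 lay within the cut-off. Among all 10974 genes above the same limit, 22.2% were at least 2-fold lower and 11.5% at least 2-fold higher by the same rule. The median log2 ratio of the 17 ligands was -1.29, against -0.04 over all these genes, whose quartiles were -0.88 and 0.59. With the limit set instead at 0.1 FPKM in both libraries, the median over 23 ligands was -0.21. Over all genes the ratio also ran with transcript length, from a median of 0.48 in the shortest of 20 length bins to -0.94 in the last but one, and after correction for this the median of the ligands was -1.61 and 2 ligands in place of 4 were at least 2-fold higher, with Ccl17 at 0.85 and Ccl27a at 0.68. The ligands spanned -4.78 to 3.24. For 7 of the 10 lower ligands (Ccl1, Ccl2, Ccl3, Ccl6, Ccl7, Ccl9 and Cxcl16) and 2 of the 4 higher ones (Cxcl10 and Cxcl12) the whole counting interval lay past the cut-off. Of these, Cxcl16 and Cxcl12 reached the mean of 1 FPKM only through the library where they were high, so that the limit itself favored a large ratio. For 4 ligands (Ccl17, Ccl25, Ccl27a and Cxcl3) it held 0. The lower ligands include the most abundant ones of the WT library. In WT LSCs 10 ligands reached 10 FPKM, and in STAP-1 KO LSCs 7. Of the 10 that did so in either library, 8 were at least 2-fold lower. The exceptions among these 10 were Cxcl2 and Cxcl10, both CXC ligands with higher values in STAP-1 KO LSCs. Ccl1, Ccl5 and Ccl7 reached 10 FPKM only through the WT library, so that this limit too favored lower ligands. The share of all genes under this limit was not computed.

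**Figure D1:**
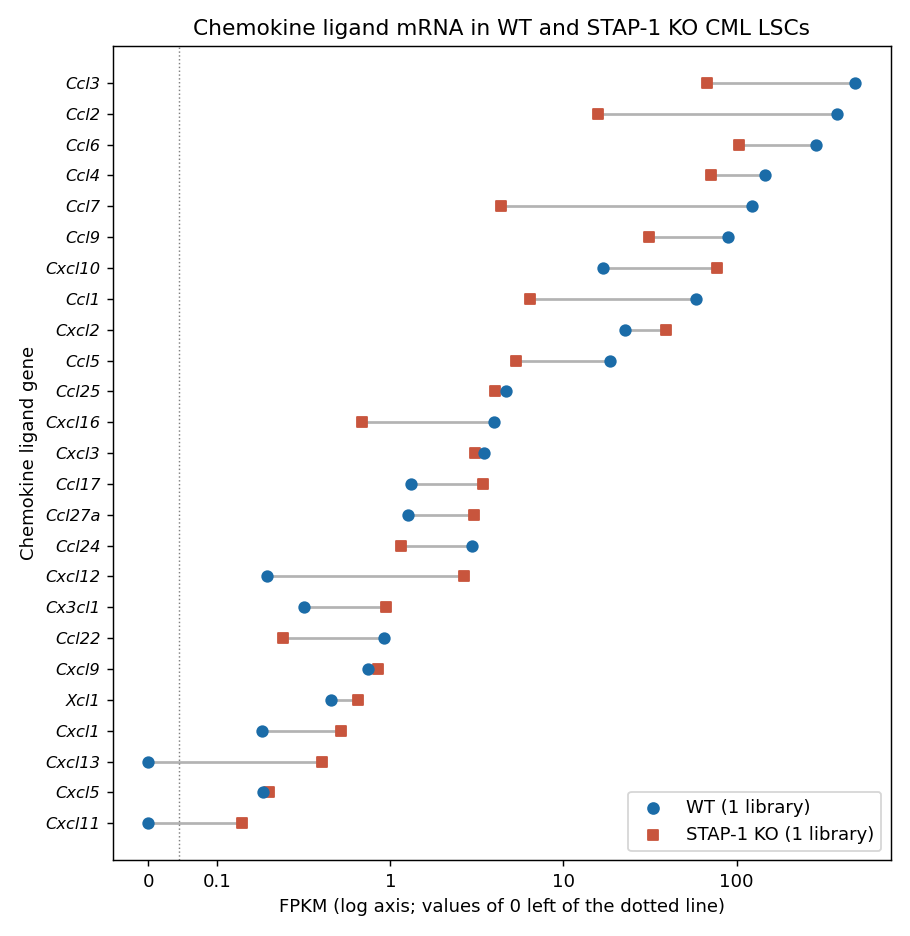
FPKM of the 25 chemokine ligands above 0 in at least 1 library, on a log axis, with 1 point for the WT library (circle) and 1 for the STAP-1 KO library (square) joined by a line; values of 0 stand left of the dotted line. From Ccl3 down to Ccl5 the circles of 8 CC ligands lie to the right of their squares, whereas Cxcl10 (16.9 and 77.1 FPKM) and Cxcl2 (22.6 and 39.2 FPKM) are placed the other way.

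The largest differences were those of Ccl2 and Ccl7, monocyte attractants that act on CCR2, with Ccl7 also acting on CCR3. Ccl2, at chromosome 11 from 82035571 to 82037453 (GRCm38), had 383 FPKM in WT LSCs and 15.8 FPKM in STAP-1 KO LSCs. Its log2 ratio was -4.59 (interval -4.90 to -4.30), a 24-fold lower level that rests on about 1732 and 100 estimated reads. Its neighbor Ccl7 had 122 and 4.36 FPKM and a log2 ratio of -4.78 (interval -5.38 to -4.24). The intervals of these neighbors overlap, and Ccl2 was 3.13 times as abundant as Ccl7 in WT LSCs and 3.62 times in STAP-1 KO LSCs. In the order of all genes by FPKM, Ccl2 stood at place 204 in WT LSCs and at place 5209 in STAP-1 KO LSCs. Ccl24, an eosinophil attractant that acts on CCR3, was much lower in level, with 2.96 and 1.15 FPKM. Its log2 ratio of -1.29 has an interval from -2.30 to -0.32, so that counting error does not place it beyond the cut-off. The other 4 ligands placed in this group, Ccl8, Ccl11, Ccl12 and Ccl26, were listed at 0 in both libraries. Ccl2 and Ccl7 thus made up nearly all of the summed level of the group, 507.9 FPKM in WT and 21.3 FPKM in STAP-1 KO.

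The inflammatory CC ligands Ccl3, Ccl4, Ccl5, Ccl6 and Ccl9 all had a ratio and were at least 2-fold lower in STAP-1 KO LSCs, against 22.2% of all genes. Ccl3 (MIP-1α; chromosome 11, 83647844 to 83649355), which draws monocytes and lymphocytes and restrains the cycling of hematopoietic progenitors, was the most abundant ligand of the WT library with 485 FPKM, and had 67.3 FPKM in STAP-1 KO LSCs. Its log2 ratio was -2.85 (interval -3.00 to -2.69). Ccl4 (MIP-1β), its neighbor and relative, had 147 and 71.0 FPKM. Its log2 ratio of -1.05 has an interval from -1.25 to -0.84 and so reaches across the cut-off. The intervals of Ccl3 and Ccl4 lie apart, and the ratio of Ccl3 to Ccl4 was 3.30 in WT LSCs and 0.948 in STAP-1 KO LSCs. Ccl6 and Ccl9, rodent chemokines of myeloid cells that bind CCR1, had ratios with overlapping intervals. Ccl6 had 288 and 104 FPKM, with a log2 ratio of -1.47 (interval -1.57 to -1.38). Ccl9 had 88.8 and 31.0 FPKM, with a log2 ratio of -1.51 (interval -1.63 to -1.40). Ccl6 was 3.24 times as abundant as Ccl9 in WT LSCs and 3.34 times in STAP-1 KO LSCs, so that these relatives differed from Ccl3 in how far they were lower. Ccl5 (RANTES), a T cell and monocyte attractant, had 18.6 and 5.33 FPKM, and its log2 ratio of -1.78 rests on about 44.9 and 18.1 reads (interval -2.66 to -0.99).

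Among the ligands of CCR4 and CCR8, which attract type 2 and regulatory T cells, the counting interval lay on one side of 0 for Ccl1. Ccl1, a ligand of CCR8, had 58.4 FPKM in WT LSCs and 6.44 FPKM in STAP-1 KO LSCs, with a log2 ratio of -3.16 (interval -3.81 to -2.59). The CCR4 ligands were near the limit of what these depths can resolve. Ccl17 had 1.31 and 3.44 FPKM, and its log2 ratio of 1.33 (interval -0.52 to 3.46) rests on about 2.99 and 11 reads. Ccl22 had 0.915 and 0.238 FPKM, below the mean for a ratio.

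**Figure D2:**
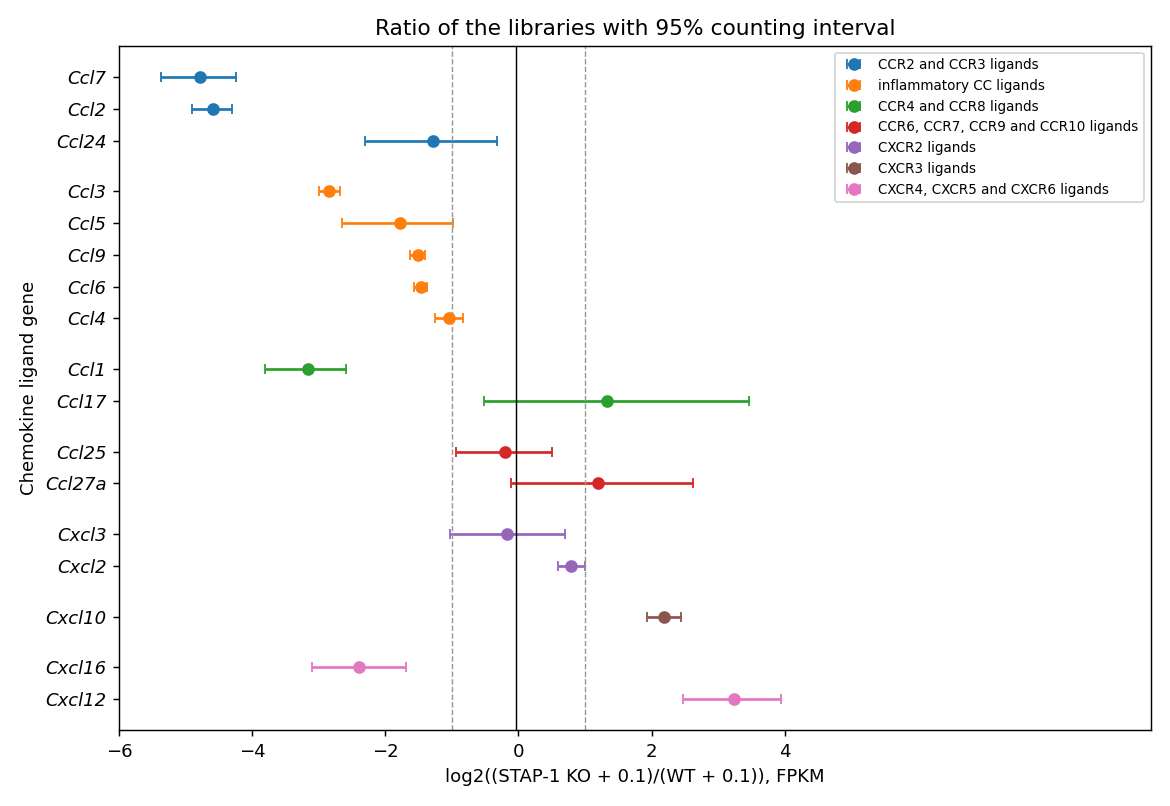
Log2 ratio of the STAP-1 KO library to the WT library for the 17 ligands with a mean of at least 1 FPKM, colored by ligand group; bars are 95% counting intervals, dashed lines mark the 2-fold cut-off and the solid line the median of all genes (-0.04). Ccl2 and Ccl7 lie lowest (-4.59 and -4.78), Cxcl12 and Cxcl10 highest (3.24 and 2.18), and the bars of Ccl17 and Ccl27a are the widest on the right.

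Of the 13 CXC ligands, 5 had a ratio, with a median log2 ratio of 0.79. At least 2-fold lower was 1 of these 5 and at least 2-fold higher were 2, against 22.2% and 11.5% of all genes, and with so few ligands nothing is read from these counts. The difference between CC and CXC ligands was not tested. The CXC ligands made up 2.92% of the summed ligand FPKM in WT LSCs and 28.2% in STAP-1 KO LSCs. Cxcl10, an interferon-induced ligand of CXCR3 that draws activated T cells and natural killer cells, was the most abundant of them in STAP-1 KO LSCs, as Cxcl2 was in WT LSCs. The gene lies at chromosome 5 from 92346638 to 92348889. It had 16.9 FPKM in WT LSCs and 77.1 FPKM in STAP-1 KO LSCs, with a log2 ratio of 2.18 (interval 1.93 to 2.44). The other CXCR3 ligands did not have levels of this order. Cxcl9 had 0.742 and 0.850 FPKM, and Cxcl11 was listed at 0 in WT LSCs and had 0.139 FPKM, about 1.99 reads, in STAP-1 KO LSCs. Cxcl10 went from 1.02% to 17.4% of the summed ligand FPKM and was placed after Ccl6 alone in STAP-1 KO LSCs.

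The CXCR2 ligands, which attract neutrophils, stayed within the cut-off where a ratio could be taken. Cxcl2 (MIP-2) had 22.6 and 39.2 FPKM. Its log2 ratio of 0.79 has an interval that begins at 0.59, and after correction for transcript length it was 0.37. Cxcl3 had 3.48 and 3.09 FPKM, with a log2 ratio of -0.17 (interval -1.03 to 0.70). Of the other 3 ligands of this receptor, Cxcl1 had 0.180 and 0.516 FPKM, about 1 and 4.03 reads. Cxcl5 had 0.184 and 0.198 FPKM, and Cxcl15 was listed at 0 in both libraries. Cxcl2 was thus the most abundant of these 5 in either library.

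Cxcl12 had the highest ratio of the ligands, with 0.194 FPKM in WT LSCs and 2.68 FPKM in STAP-1 KO LSCs. Its log2 ratio was 3.24 (interval 2.47 to 3.94). With a pseudocount of 1 FPKM it was 1.62, below the 2.13 of Cxcl10, so the rank depends on the pseudocount. Cxcl12 passed the limit on the mean only through the STAP-1 KO library. Its 4 annotated transcripts differ in length, so the 7.90 and 152 reads behind its ratio are approximate. Of 7 endothelial and stromal marker genes, none exceeded 8.38 FPKM in WT LSCs or 2.88 FPKM in STAP-1 KO LSCs. Their summed level was 13.7 and 4.58 FPKM. Cdh5 (0.0706 FPKM) and Lepr (0.0834 FPKM) were near the limit of detection in WT LSCs and at 0 in STAP-1 KO LSCs, whereas Kdr had 0.331 and 0.510 FPKM and Emcn 0.110 and 0.787 FPKM. The purity of the GFP+ CD45.2+ sort is not given in the sources used here, and the part of endothelial and stromal cells in the Cxcl12 values was not tested. Cxcl16, a membrane-bound ligand of CXCR6, went the other way with 3.99 and 0.682 FPKM and a log2 ratio of -2.39 (interval -3.10 to -1.69), or -1.57 with a pseudocount of 1 FPKM. Cxcl13, the B cell attractant that binds CXCR5, was listed at 0 in WT LSCs and had 0.401 FPKM, about 3.95 reads, in STAP-1 KO LSCs.

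The homing ligands of CCR6, CCR7, CCR9 and CCR10 were low or listed at 0. Ccl25, the CCR9 ligand of thymus and gut, had 4.66 and 4.03 FPKM and a log2 ratio of -0.21 (interval -0.94 to 0.51). Ccl27a, a skin ligand of CCR10, had 1.27 and 3.05 FPKM and a log2 ratio of 1.20 (interval -0.11 to 2.63). It lies across Il11ra1 on the other strand, which had 3.69 and 10.3 FPKM, and without strand the reads of overlapping exons cannot be told apart; the annotated exons share 8 bases. In the same way Ccl25 shares 204 exonic bases with Elavl1 (48.2 and 68.9 FPKM). Cxcl10 shares 133 exonic bases with Art3 and Cxcl16 552 with Zmynd15, but neither partner exceeded 0.282 FPKM. The lymph node and mucosal ligands Ccl19, Ccl20, Ccl21a, Ccl21b, Ccl21c, Ccl27b and Ccl28 were listed at 0 in both libraries, as were Cxcl14 and Cxcl17. Ccl19, Ccl21 and Ccl27 genes have near-identical copies, and reads that fit several copies may have been divided among them. The membrane-bound ligand Cx3cl1 had 0.318 and 0.944 FPKM, and the lymphotactin gene Xcl1 0.454 and 0.650 FPKM, both below the limit.

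Of the 10 lower ligands, 8 lay in 2 clusters on chromosome 11, Cxcl16 lay elsewhere on that chromosome and Ccl24 on chromosome 5. The cluster from Ccl2 to Ccl1 (82035571 to 82305690 in GRCm38, where the end is that of a long processed transcript of Ccl1) holds 6 ligands, of which Ccl2, Ccl7 and Ccl1 were expressed and at least 2-fold lower, while Ccl11, Ccl12 and Ccl8 between them were at 0. The cluster from Ccl5 to Ccl4 (83525778 to 83664683) holds 5 ligands, all at least 2-fold lower. These 5 are the inflammatory CC ligands already counted above. Of all genes with a ratio, 22.2% were lower by the same rule. The summed level of the first was 563.3 FPKM in WT LSCs and 26.6 FPKM in STAP-1 KO LSCs, and that of the second 1026 and 278.3 FPKM. On chromosome 5, the cluster from Cxcl5 to Cxcl2 had 26.4 and 43.0 FPKM and the cluster from Cxcl9 to Cxcl11 had 17.6 and 78.1 FPKM. In the smaller group on chromosome 8, Ccl22 (0.915 and 0.238 FPKM) lies 64.9 kb from Ccl17 (1.31 and 3.44 FPKM) with Cx3cl1 between them. Ccl22 and Cx3cl1 have no ratio, and the interval of Ccl17 holds 0.

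**Figure D3:**
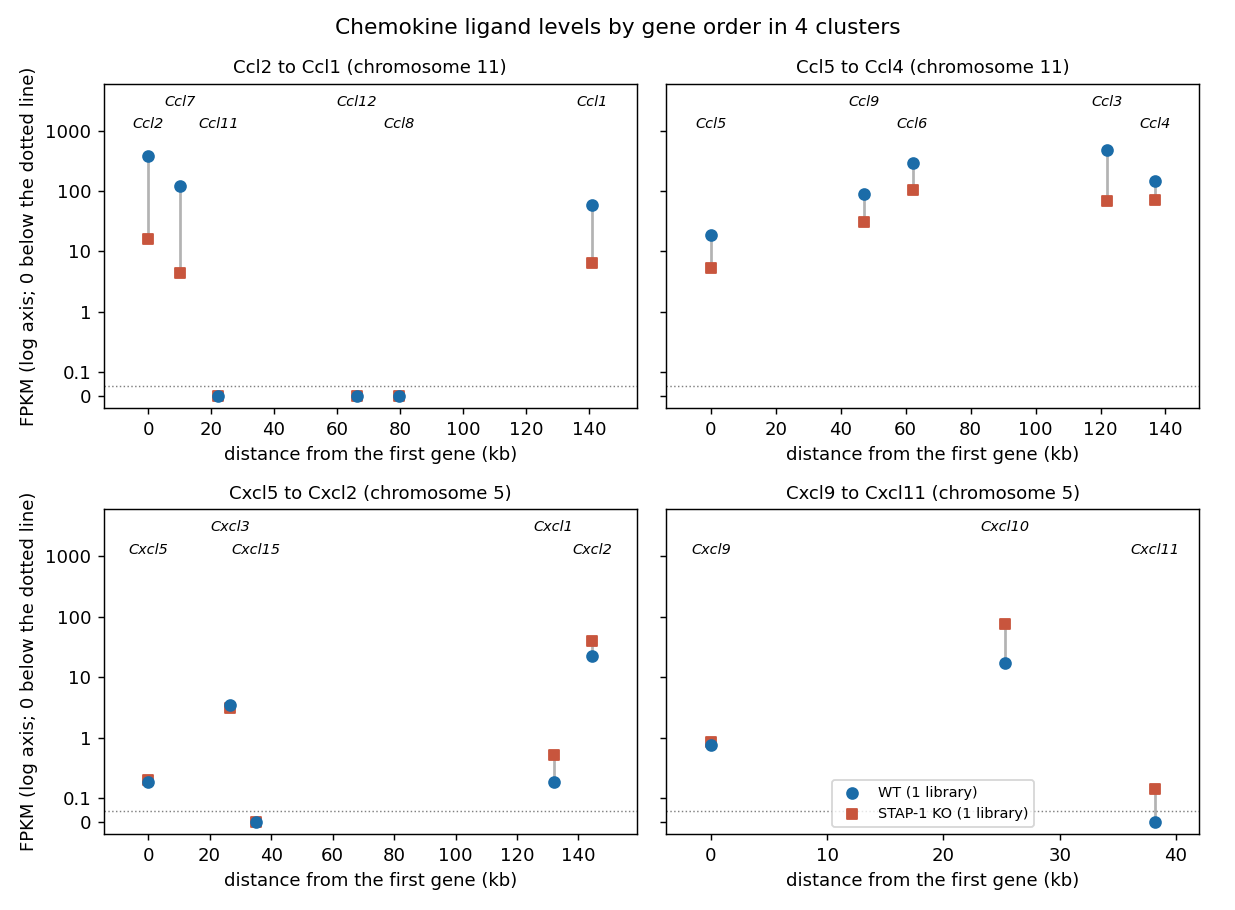
FPKM of the ligands (log axis, values of 0 below the dotted line) by distance of each gene from the first gene of its cluster in kb, for 2 clusters on chromosome 11 and 2 on chromosome 5; circles are the WT library and squares the STAP-1 KO library, 1 each. In both chromosome 11 clusters the expressed genes have the circle above the square, and in the chromosome 5 clusters Cxcl2 and Cxcl10 have the square above the circle.

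The make-up of the ligand mRNA pool differed accordingly. Ccl3, Ccl2 and Ccl6 together made up 70.0% of the summed ligand FPKM in WT LSCs. In the STAP-1 KO library Ccl6, Cxcl10 and Ccl4 led with 56.8%. Ccl2 went from 23.2% to 3.57% of the sum and Ccl7 from 7.41% to 0.985%, whereas Cxcl2 went from 1.37% to 8.84%. Ccl4, although lower in FPKM, went from 8.89% to 16.0%.

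**Figure D4:**
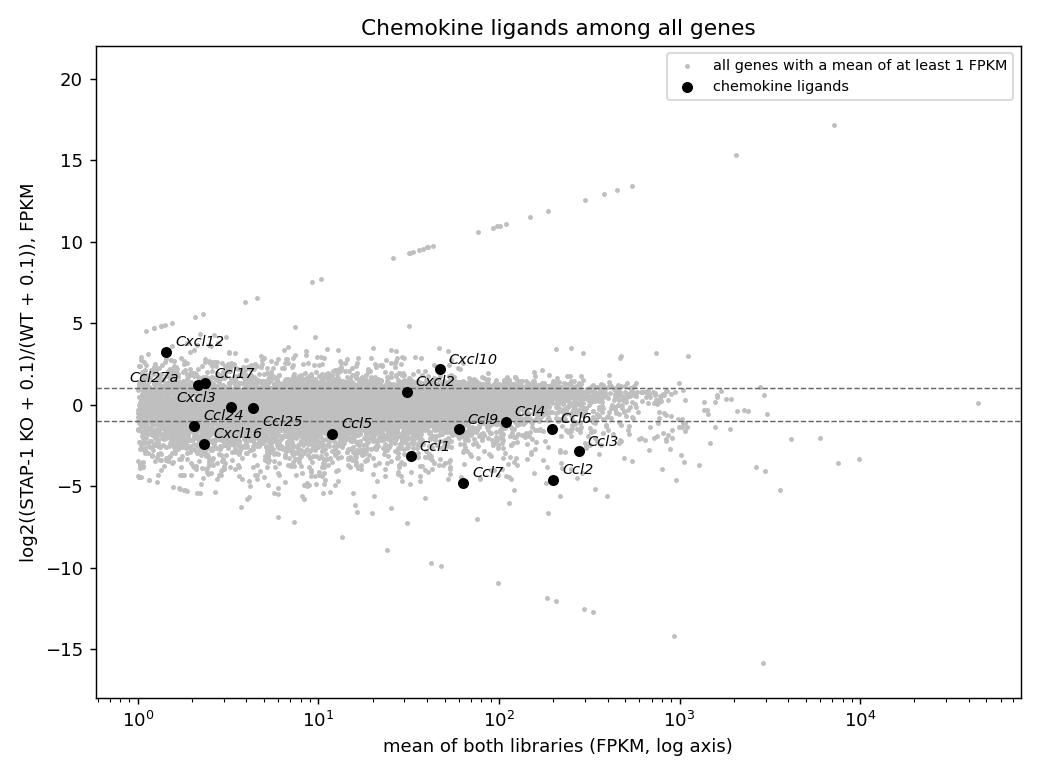
Log2 ratio of the libraries against the mean FPKM of both (log axis) for all 10974 genes above the limit of 1 FPKM (grey) and the 17 chemokine ligands among them (black, named); dashed lines mark the 2-fold cut-off. Ccl2, Ccl7, Ccl3 and Ccl1 lie below -2 at means between 32.4 and 276 FPKM, and Cxcl10 and Cxcl12 lie above 2; the grey points on slanted lines are genes at 0 in 1 library.

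Other genes of the chemokine system were read from lists, whose counts stand against the 22.2% of all genes that were lower and the 11.5% that were higher. Of 22 receptors and scavenger receptors, 11 had a mean of at least 1 FPKM, 5 were at least 2-fold lower and none was at least 2-fold higher in STAP-1 KO LSCs, with a median log2 ratio of -0.72. Ccr2, the receptor of Ccl2 and Ccl7, had 41.8 and 10.3 FPKM. Ccr8, the receptor of Ccl1, had 3.38 and 0.504 FPKM, and Xcr1, the receptor of Xcl1, 6.85 and 1.96 FPKM. Ccr8 reached the limit only through the WT library. Cxcr3, the receptor of Cxcl10, had 2.76 and 1.64 FPKM and Cxcr6, the receptor of Cxcl16, 0.317 and 0.964 FPKM. Outside the naming rule, the platelet chemokines Pf4 (CXCL4) and Ppbp (CXCL7) had 57.9 and 71.2 FPKM and 5.05 and 18.0 FPKM. Of 10 NF-κB subunits, inhibitors and feedback genes, 6 were at least 2-fold lower and none was at least 2-fold higher (median log2 ratio -1.25). Tnfaip3, a feedback inhibitor, had 183 and 28.5 FPKM, Nfkbiz 151 and 33.2 FPKM and the subunit gene Rel 10.4 and 3.26 FPKM. Within the cut-off were the subunit genes Nfkb1 with 84.05 and 58.7 FPKM and Rela with 56.8 and 40.6 FPKM. So were the inhibitor genes Nfkbia with 315 and 247 FPKM and Nfkbib with 22.6 and 28.5 FPKM. Of 4 genes for proteins that speed the decay of cytokine and chemokine mRNA, 3 were at least 2-fold lower (median -1.72). These were Zfp36l1 with 28.5 and 4.09 FPKM, Zfp36l2 with 136 and 41.5 FPKM and Zc3h12a with 6.32 and 1.84 FPKM.

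Markers of other cells that an LSK gate could hold were read against the same shares of all genes, 22.2% lower and 11.5% higher. Apart from the mast cell and basophil markers, each count rests on 7 or fewer genes with a ratio. All 10 mast cell and basophil markers were at least 2-fold lower in STAP-1 KO LSCs (median log2 ratio -3.26), none was at 0, and their summed level was 51800 and 5275 FPKM. Tpsab1 had 430 and 8.74 FPKM, Tpsb2 7016 and 185 FPKM and Hdc 5629 and 330.2 FPKM. Mast cells are a known source of Ccl1, Ccl2, Ccl3 and Ccl7, and the part of these markers in the ligand values was not tested. In such bulk samples, fewer cells of a type and less RNA per cell cannot be told apart. Of 11 monocyte and macrophage markers, 7 had a ratio, 2 were at least 2-fold lower (Emr1 with 30.7 and 4.34 FPKM, Cd68 with 95.7 and 26.3 FPKM) and 3 higher, among them Ly6c2 with 20.5 and 98.0 FPKM. Their summed level was 155.7 and 142.8 FPKM, and none was at 0. Primary granule genes were higher in 4 of 4 (522.1 and 4163 FPKM in sum) and eosinophil genes in 3 of 3 (3.50 and 73.2 FPKM). Of the 7 neutrophil markers analysed, 6 were lower (399.8 and 157.7 FPKM in sum). Dendritic cell markers were lower in 3 of the 4 with a ratio, T and NK cell markers lower in 1 and higher in 1 of 4, and megakaryocyte and platelet markers lower in 1 and higher in 2 of 6. Of 3 B cell markers, 1 had a ratio (Cd79b, 3.10 and 17.8 FPKM), and Cd79a was at 0 in WT LSCs. Both stromal markers with a ratio were lower, Col1a2 with 4.67 and 0.310 FPKM and Pdgfrb with 8.38 and 2.88 FPKM. In the neutrophil, dendritic cell, eosinophil, megakaryocyte and stromal lists, Mmp8, Retnlg, Itgax, Clec9a, Prg3, Treml1 and Col1a2 reached the mean of 1 FPKM only through the library where they were high.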

How the data were processed

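RNA-seq was performed on GFP+ CD45.2+ LSK cells, 1 library from WT and 1 from STAP-1 KO CML mice. The authors amplified cDNA with a low-input SMART-Seq kit that keeps no strand, mapped single reads to mm10 (TopHat2 2.0.13, Bowtie2 2.2.3) and deposited FPKM values from Cuffnorm 2.2.1 (SAMtools 0.1.19 in the submitters' processing notes; the methods name another version). The annotation and library scaling are not given in the sources used here.

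Ratios, counts past the 2-fold cut-off and medians used Python 3.11.15 (numpy 2.4.6, scipy 1.17.1, pandas 2.3.3, matplotlib 3.10.9). Depth came from FPKM steps of genes with 1 GENCODE M21 (GRCm38) transcript of over 600 bases: with a tolerance of 0.01 read, 42.2% (WT, 431 values) and 44.9% (STAP-1 KO, 494 values) of the values under 0.5 FPKM were whole reads, where 2% would be so for even spread. Estimated reads use the longest coding transcript, less 210 (WT) or 207 (STAP-1 KO) bases. GENCODE matched 22826 symbols. Receptor and marker lists were taken whole, and up to 3 members were named by size of their log2 ratio with 1 FPKM added, besides all sorting antigens. Cxcr3, Cxcr6, Nfkb1, Rela, Nfkbia, Nfkbib, Cdh5, Lepr, Kdr, Emcn, Cd79a, Mmp8 and Retnlg were chosen after their values were seen. The ligands and lists were chosen with earlier results of these data known. Depth, interval and counting steps were tested on simulated data. No replicate exists, so no test was run. Alternatives changed the pseudocount, scaling, limits, cut-off and length correction, and 1 on estimated reads was chosen after seeing the data. Sequences are from RefSeq GRCm38.p6. Some receptors and markers are not reported here.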

Additional observations from a re-analysis of the deposited data

How the results depend on the processing

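The count of lower ligands, 10 as reported, stayed at 10 under the 3 other scalings and the length correction, and was 9 at a pseudocount of 1 FPKM, 8 above a mean of 5 FPKM, 11 at 0.1 FPKM or more in both libraries and 5 at a 4-fold cut-off. The count of higher ligands, 4 as reported, was 2 at a pseudocount of 1 FPKM, 2 after correction for transcript length, where Ccl17 was 0.85 and Ccl27a 0.68, 1 above a mean of 5 FPKM, 1 with at least 10 estimated reads in each library (chosen after seeing the data) and 2 at a 4-fold cut-off, but 6 with at least 0.1 FPKM in both libraries. The median log2 ratio was -1.61 after the length correction, -1.65 above a mean of 5 FPKM and -0.21 over the 23 ligands with at least 0.1 FPKM in both libraries, since low ligands then enter. The scalings moved the median of all genes to between -0.09 and 0.00. Of 102 recomputed values of single ligands, 94 lay within their counting interval and none changed sign among ligands past the cut-off. Of the 8 outside it, 6 came from the length correction, under which Ccl2 was -5.11 and Cxcl10 1.89. No paired analysis was possible because each genotype has 1 library. Depth limits Ccl17, Ccl27a and the ligands below 1 FPKM.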
